A study of Homo sapiens with 9 samples.

Results

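The probes described here are the miRNA (microRNA) probes that were brightest in the cisplatin-resistant line IGROV-1/Pt1 of a set of 3 human ovarian carcinoma lines. They number 43 of the 705 probes tested, among 1145 probes in the deposited table. The rule took probes that reached an intensity of 167 on at least 3 of the 9 arrays and whose lowest IGROV-1/Pt1 array lay above the highest of the 6 arrays of the other lines. It also asked that the mean log2 intensity of IGROV-1/Pt1 exceed the higher of the means of the other lines by at least 0.5, a difference called the gap here. The gap had to be larger than the distance between those other means. The members were thus chosen by the same intensities that describe them, and no test of these members against the other lines is independent of that choice.

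The lines are the parental, cisplatin-sensitive IGROV-1 cells, the cisplatin-resistant line IGROV-1/Pt1, raised from them under cisplatin, and the oxaliplatin-resistant line IGROV-1/OHP, raised from them under oxaliplatin. Each line was represented by 3 biological replicates, per the series' design text, and all were total RNA from exponentially growing cells, with no drug treatment given in the labels. Each resistant phenotype is represented by a single derived line, so a trait of that line cannot be told apart from an effect of its drug. The sources used here do not say whether the derived lines are clones, or at which drug level they were kept.

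MiRNAs are short RNAs that guide Argonaute proteins to messenger RNAs by pairing through a seed near their 5′ end, and thereby lower the stability and translation of those targets. Cisplatin and oxaliplatin form platinum adducts on DNA, and resistant cells are known to differ in drug uptake and export, in detoxification by thiols, in DNA repair and in the threshold for cell death. MiRNAs have been studied in ovarian carcinoma as regulators of several of these processes. The deposited tables give Illumina identifiers with no miRNA names, so the members are called by their rank in gap, from 1 for the widest to 43, and no sequence, seed family or genomic position is given. Markers of cell type could not be checked for the same reason.

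Values are the deposited probe intensities, which follow the same distribution on every array, with array medians of 240.2 to 241.2. A change in total miRNA content between the lines would not be seen in them. Fewer cells carrying a miRNA and less of it per cell cannot be told apart in such bulk RNA. Intensities of different probes reflect their labelling and hybridisation as well as abundance, so each probe is compared with itself across the lines. The lowest intensity in the table is 41.1, and how much background remains in dim values is not known. If some remains, folds of dim probes are understated.

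Of the 43 members, 10 had a gap of 3 or more on the log2 scale, 17 a gap between 1 and 3, and 16 a gap below 1. The median gap was 1.34, which corresponds to an intensity 2.53-fold above the brighter of the other lines. The median log2 difference of IGROV-1/Pt1 minus parental cells was 1.77 over the members against -0.02 over all tested probes, and that of IGROV-1/Pt1 minus IGROV-1/OHP was 1.45 against -0.04. These medians describe the choice of members, and the pair of differences shares the IGROV-1/Pt1 arrays. With the lowest intensity of each array subtracted, the median gap of the members was 1.51.

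**Figure D1:**
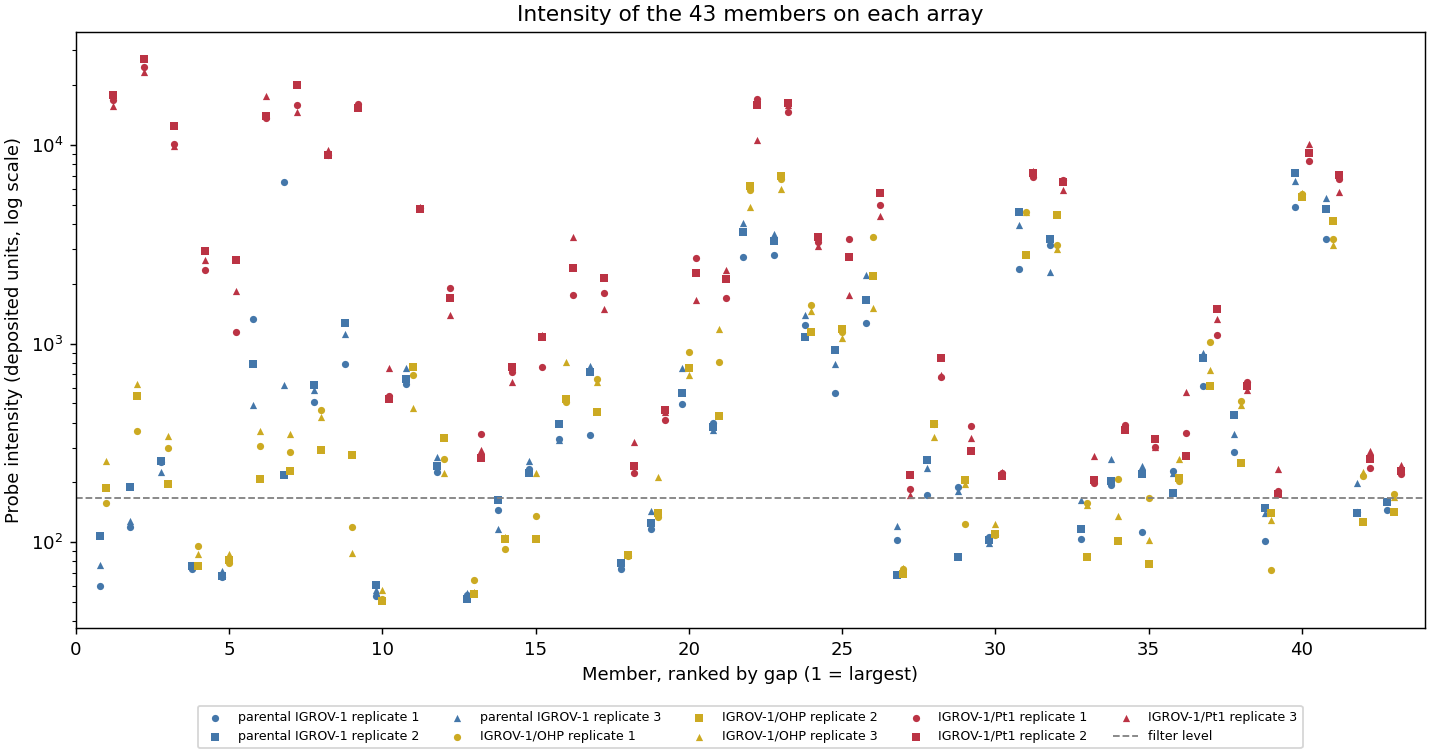
Each point is the deposited intensity (log axis) of a member on 1 array, with members ordered by gap along the horizontal axis, colours for the 3 lines and marker shapes for the replicates; the dashed line is the filter level of 167. The IGROV-1/Pt1 arrays stand highest at every member, as the rule requires, and the distance to the other lines narrows from rank 1 to rank 43.

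The widest gap was at ILMN_3167116. Its intensities on IGROV-1/Pt1 replicates 1 to 3 were 16831, 17842 and 15802, against 157, 187 and 256 in IGROV-1/OHP and parental values of 60.3, 108 and 76.7. The mean was 16825 ± 1020 (SD, n = 3) in IGROV-1/Pt1, and the gap to IGROV-1/OHP was 6.42, or 85.9-fold. The IGROV-1/Pt1 arrays lay within 1.13-fold of each other. In parental cells the probe stayed below the filter level on all 3 arrays and in IGROV-1/OHP on 1 of 3.

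ILMN_3167208 had the same order of lines at a higher intensity. It stood at 24823, 27072 and 23369 on the IGROV-1/Pt1 arrays, at 362.5, 548 and 626 in IGROV-1/OHP, with parental values of 119, 191 and 127.4. The gap to IGROV-1/OHP was 5.65, or 50.2-fold. At both probes, all IGROV-1/OHP arrays also lay above all parental arrays, so the lines formed 3 steps that did not overlap, with the IGROV-1/OHP step far nearer to the parental one.

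The members ranked 3, 4 and 5 had a gap of 5.31, 4.94 and 4.44. Rank 3 was at 10184, 12500 and 9911 in IGROV-1/Pt1, where the other lines gave similar dim values of 195.4 to 344 in IGROV-1/OHP and of 226 to 256 among the parental arrays. At ranks 4 and 5 both other lines lay below the filter level on every array, between 66.7 and 95.5. Rank 4 reached 2345, 2944 and 2655 in IGROV-1/Pt1. Its geometric mean lay 15.8-fold above the level, and 30.7-fold above IGROV-1/OHP as measured. Rank 5 was less even, at 1143, 2655 and 1853, a 2.32-fold span that was the widest among the members in IGROV-1/Pt1. The geometric mean of rank 5 lay 10.6-fold above the level, so at least as far above the other lines.

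The members ranked 6 to 9 were bright in IGROV-1/Pt1 and intermediate in the parental cells, with IGROV-1/OHP lowest by its mean. Rank 6 was at 13759, 14076 and 17667 in IGROV-1/Pt1, at 1329, 788 and 493.3 in parental cells and at 304, 209 and 362.5 in IGROV-1/OHP. Rank 8 was tight in IGROV-1/Pt1, with 8885 on replicates 1 and 2 and 9404 on replicate 3, against 510, 620 and 584 in parental cells and 465, 293 and 429 in IGROV-1/OHP. At both, the 3 lines did not overlap. Rank 9 had the widest distance between the other lines among the members, with 788, 1266 and 1118 in parental cells and 120, 275 and 88.2 in IGROV-1/OHP. In IGROV-1/Pt1 it was at 16141, 15425 and 15622, a mean 15.2-fold above the parental mean and 110.2-fold above that of IGROV-1/OHP as measured, where 1 of 3 arrays reached the level.

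The member ranked 7 is the only 1 of the 43 whose arrays within a line differed by 4-fold or more. Its parental intensities were 6533 on replicate 1, 218 on replicate 2 and 620 on replicate 3, a 29.9-fold span. The IGROV-1/Pt1 arrays, at 15930, 20183 and 14689, still lay above all of them, and IGROV-1/OHP was at 284, 227 and 350. The lowest IGROV-1/Pt1 array was 2.25-fold above parental replicate 1, the smallest such margin among the 10 members with a gap of 3 or more, where it reached 61.8-fold. Without parental replicate 1 the gap at rank 7 moved from 4.13 to 5.51, or from 17.5-fold to 45.6-fold. Parental replicate 1 was at least 4-fold brighter than parental replicate 2 at 20 tested probes, and 1 of these is a member. The part of that array in the parental mean of the other members was smaller, as described below.

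The last member with a gap over 3, at rank 10, lay near the bottom of the intensity range in the other lines, between 50.6 and 60.6 on their 6 arrays. It stood at 543.7, 525 and 758.3 in IGROV-1/Pt1. The measured gap of 3.39 corresponds to 10.5-fold, whereas the lower bound from the filter level was 3.59-fold. Its fold therefore rests on values below the level.

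Among the members with a gap between 1 and 3, those ranked 11 and 12 were the widest. Rank 11 was at 4816, 4777 and 4894 in IGROV-1/Pt1, within 1.02-fold of each other, against 699, 763 and 472 in IGROV-1/OHP and parental values of 626, 667 and 751. Its mean was 7.11-fold above the parental mean, and the other lines overlapped. Rank 12 was at 1907, 1705 and 1398 in IGROV-1/Pt1, 6.14-fold above IGROV-1/OHP, which overlapped with parental cells at 224 to 334 against 225 to 268. In the whole class the gap ran from 1.02 to 2.83, with a median of 1.48, and the IGROV-1/Pt1 means from 192 to 15671.

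Ranks 22 and 23 belong to the brightest members although their gaps were modest. Rank 22 was at 17188, 15930 and 10662 in IGROV-1/Pt1, at 5916, 6242 and 4894 in IGROV-1/OHP, with parental values of 2749, 3644 and 4075. Rank 23 was at 14689, 16395 and 15930, at 6760, 6975 and 6029 and at 2812, 3298 and 3551 in the same order of lines. Both formed 3 steps with IGROV-1/OHP in the middle. At rank 23 the middle step lay about midway on the log2 scale, with a gap of 1.25 above it and a distance of 1.04 below it.

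By intensity in IGROV-1/Pt1, 8 members had a mean of 10000 or more, 17 a mean between 1000 and 10000, and 18 a mean below 1000. The tested probes in these ranges numbered 147 at the bright end, 336 at the dim end and the remainder between. The median gap was 4.18 in the bright class, 1.45 in the middle class and 0.96 in the dim class, and 6 of the 10 members with a gap of 3 or more were in the bright class. The IGROV-1/Pt1 mean that defines these classes is itself a term of the gap, so a wider gap in the bright class is built in and nothing is read from the order. The 6 members with the highest IGROV-1/Pt1 means were those ranked 2, 7, 1, 9, 23 and 6.

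In the other lines, 10 members were below the filter level on all 6 arrays, with intensities of 50.6 to 163. They passed the filter only through IGROV-1/Pt1, so a difference was built into their choice. Their IGROV-1/Pt1 means ran from 192 to 2648. The geometric means lay 1.15-fold to 15.8-fold above the level, so at least as far above the other lines. By contrast, 23 members reached the level on all 9 arrays, and 10 on some of the other lines' arrays. Among the members with a gap below 1, 3 were below the level on all 6 other arrays, and the class reached an IGROV-1/Pt1 mean of 9235 at rank 40.

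The members fell into 3 arrangements of the other lines. In 26 of the 43 the IGROV-1/OHP and parental arrays overlapped, in 12 all IGROV-1/OHP arrays lay above all parental arrays, and in 5 they lay below them. These are 60.5%, 27.9% and 11.6% of the members, and over all tested probes the same arrangements held at 67.0%, 20.6% and 12.5%. The rule limits the distance between these lines by the gap, so the shares of members are a description. The distance was under 0.5 on the log2 scale at 28 members, or 65.1%, against 71.2% of all tested probes.

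In the 12 members where the lines stood in steps from parental cells over IGROV-1/OHP to IGROV-1/Pt1, the IGROV-1/OHP mean exceeded the parental mean on the log2 scale by 0.15 to 1.81, with a median of 0.74. They include ranks 1, 2, 4 and 5 of the wide gaps. At 4 of the 12, ranks 4, 5, 18 and 30, both lower steps were below the filter level on every array, so their order there rests on dim values, and rank 30 gave the smallest distance of 0.15. The largest distance was 1.81 at ILMN_3167208, where only 1 of 3 parental arrays reached the level. At ILMN_3167116 no parental array reached it, so the distance at both probes also rests partly on dim values. Rank 21 shows a loose middle step, with 809, 433.3 and 1182 in IGROV-1/OHP, parental values of 398, 378.7 and 366 and 1705, 2125 and 2345 in IGROV-1/Pt1. Rank 28 shows a tight one, with 396, 393 and 339 in IGROV-1/OHP between parental values of 173, 260 and 236 and IGROV-1/Pt1 values of 678, 851 and 694.

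The 5 members where IGROV-1/OHP lay below parental cells, a share near that of all tested probes, were ranked 6, 8, 9, 14 and 15. There the derived lines stood on opposite sides of the parental cells, with log2 differences of IGROV-1/OHP minus parental cells from -2.86 to -0.48. Rank 14 stood at 718, 763 and 642 in IGROV-1/Pt1, at 146, 163 and 117 in parental cells and at 92.5, 103 and 107 in IGROV-1/OHP. Both lower lines were below the level on every array, so their order at rank 14 rests on dim values. Rank 15 was at 763, 1086 and 1109, at 233, 223 and 256 and at 135, 104 and 223, and there the highest IGROV-1/OHP array nearly met the lowest parental array.

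**Figure D2:**
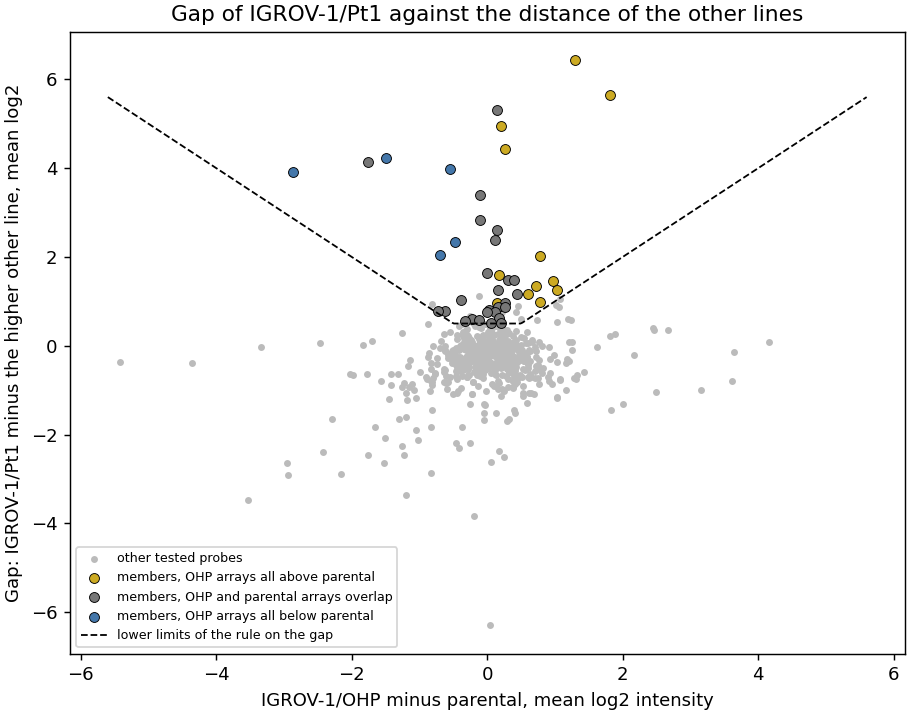
Each point is a tested probe; the horizontal axis is IGROV-1/OHP minus parental mean log2 intensity and the vertical axis the gap of IGROV-1/Pt1 over the higher of those lines, with the limits of the rule dashed and the members coloured by how the IGROV-1/OHP and parental arrays lie. The members with a gap of 3 or more spread from -2.86 to 1.81 on the horizontal axis, and the grey points above the dashed line are the 11 probes whose arrays overlap.

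The model fitted to all tested probes (limma, Benjamini-Hochberg adjusted p below 0.05) called 34 of the 43 members higher in IGROV-1/Pt1 than in parental cells, where 10.8% of all tested probes were so called. It called 35 members higher in IGROV-1/Pt1 than in IGROV-1/OHP, against 7.94% of all tested probes. Both calls held at 32 members, against 5.11%. The rule used these contrasts, so nothing is read from the excess, and separated arrays with a gap did not always give a call with 3 arrays per line. Without IGROV-1/Pt1 replicate 1, 2 or 3, 33 members could be tested, and the calls were 22, 23 and 22 against parental cells and 20, 18 and 21 against IGROV-1/OHP. The share of all tested probes called was not counted without these arrays, so nothing is read from the lower counts. Between IGROV-1/OHP and parental cells, 4 members were called higher in IGROV-1/OHP and 2 lower, against 7.80% and 5.39% of all tested probes. The higher ones were ranks 1, 2, 23 and 28 and the lower ones ranks 6 and 9.

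Over the members, the IGROV-1/Pt1 replicates had the smallest median spread. The median SD on the log2 scale was 0.18 in IGROV-1/Pt1, 0.31 in IGROV-1/OHP and 0.29 among the parental arrays (n = 3 arrays each), against 0.16, 0.25 and 0.22 over all tested probes. Arrays of a line lay 2-fold or more apart at 2 members in IGROV-1/Pt1, 7 in IGROV-1/OHP and 5 among the parental arrays. These are 4.65%, 16.3% and 11.6% of the members, against 8.79%, 20.3% and 11.1% of all tested probes. IGROV-1/Pt1 had the smallest and IGROV-1/OHP the largest median SD both over the members and over all tested probes.

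Parental replicate 1 was the lowest parental array at 28 of the 43 members, or 65.1%, and at 54.6% of all tested probes. Its median deviation from the parental mean was -0.13 on the log2 scale over the members and -0.07 over all tested probes. In IGROV-1/OHP, replicate 2 was the lowest array at 21 members, or 48.8%, and at 45.5% of all tested probes, with a median deviation of -0.07 over the members. In IGROV-1/Pt1 the median deviations were -0.05, 0.06 and 0.01 on replicates 1 to 3. These medians are small beside the gaps of 3 or more.

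**Figure D3:**
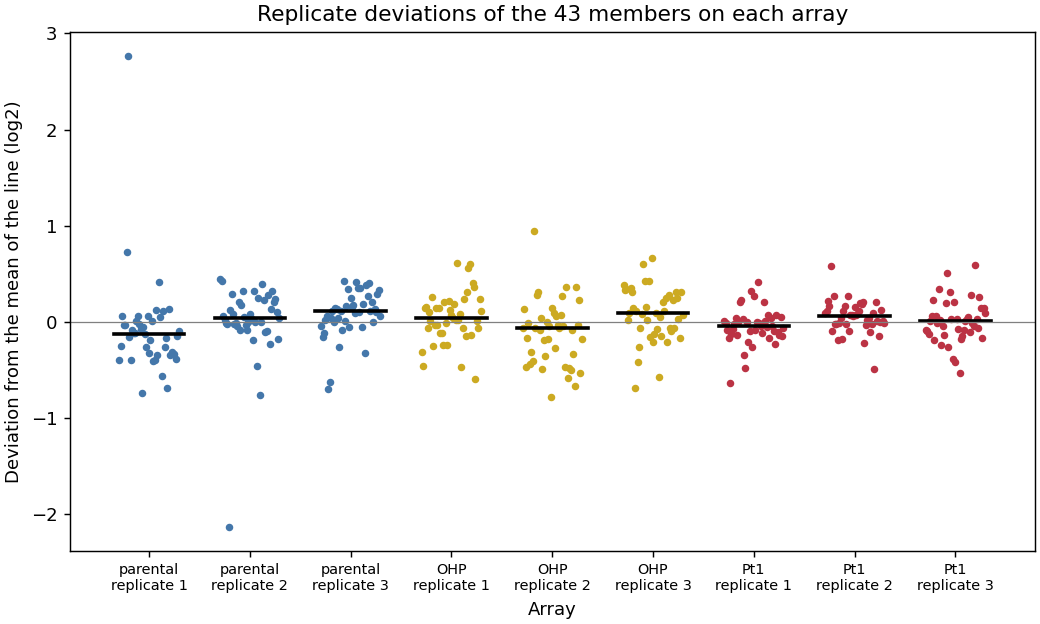
Each point is 1 of the 43 members on an array, plotted as its log2 intensity minus the mean of its line, and the black bars are medians over the members. The medians run from -0.13 on parental replicate 1 to 0.11 on parental replicate 3, and the points far from 0 on parental replicates 1 and 2 are the member ranked 7.

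At the edge of the rule, the members with the smallest gaps were ranked 42 and 43, at 0.513 and 0.511. The nearest separated probes left out had gaps of 0.496 and 0.471. Rank 43 was at 219, 227 and 245 in IGROV-1/Pt1 against 174, 143 and 169 in IGROV-1/OHP and parental values of 145.1, 160 and 163. The line drawn by the rule thus passes between probes whose values are close.

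For the separation of arrays, the closest members were ranks 36 and 42, where the lowest IGROV-1/Pt1 array exceeded the highest other array by 0.05 and 0.06 on the log2 scale, and the nearest probes outside overlapped by 0.01 and 0.06. Rank 36 was at 356, 272 and 573 in IGROV-1/Pt1 against a highest other array of 263. For the distance between the other lines, ranks 35 and 34 passed by 0.05 and 0.17, and the nearest probes outside missed by 0.03 and 0.10. In all, 7 members cleared the highest other array by less than 1.2-fold, and 18 cleared it by 2-fold or more.

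The IGROV-1/Pt1 arrays lay above all other arrays at 71 tested probes, or 10.1%. Of these, 23 had a gap below 0.5 and 5 had a distance between the other lines at least as large as the gap. In all 5, IGROV-1/OHP lay above parental cells, by 1.02 to 1.24 on the log2 scale, so these probes continue the stepwise arrangement seen at ranks 21 to 23. A further 11 probes met both conditions on the gap but had overlapping arrays.

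The same rule turned to the other lines gave 20 probes highest in IGROV-1/OHP and 17 highest in parental cells. Turned to low values, it gave 34 probes lowest in IGROV-1/Pt1, with a median gap of 1.02, and 2 of these had a gap of 3 or more. The widest gap was 6.27 there and 6.42 among the members. It gave 18 probes lowest in IGROV-1/OHP, 3 of them with a gap of 3 or more and the widest at 5.05, and 33 lowest in parental cells, 2 of them with a gap of 3 or more and the widest at 4.16. For probes highest in IGROV-1/OHP the widest gap was 1.31 and for those highest in parental cells 2.39. Gaps of 3 or more were therefore also found among the low probes of every line. The differences between these counts were not tested, and all of them draw on the same 9 arrays.

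**Figure D4:**
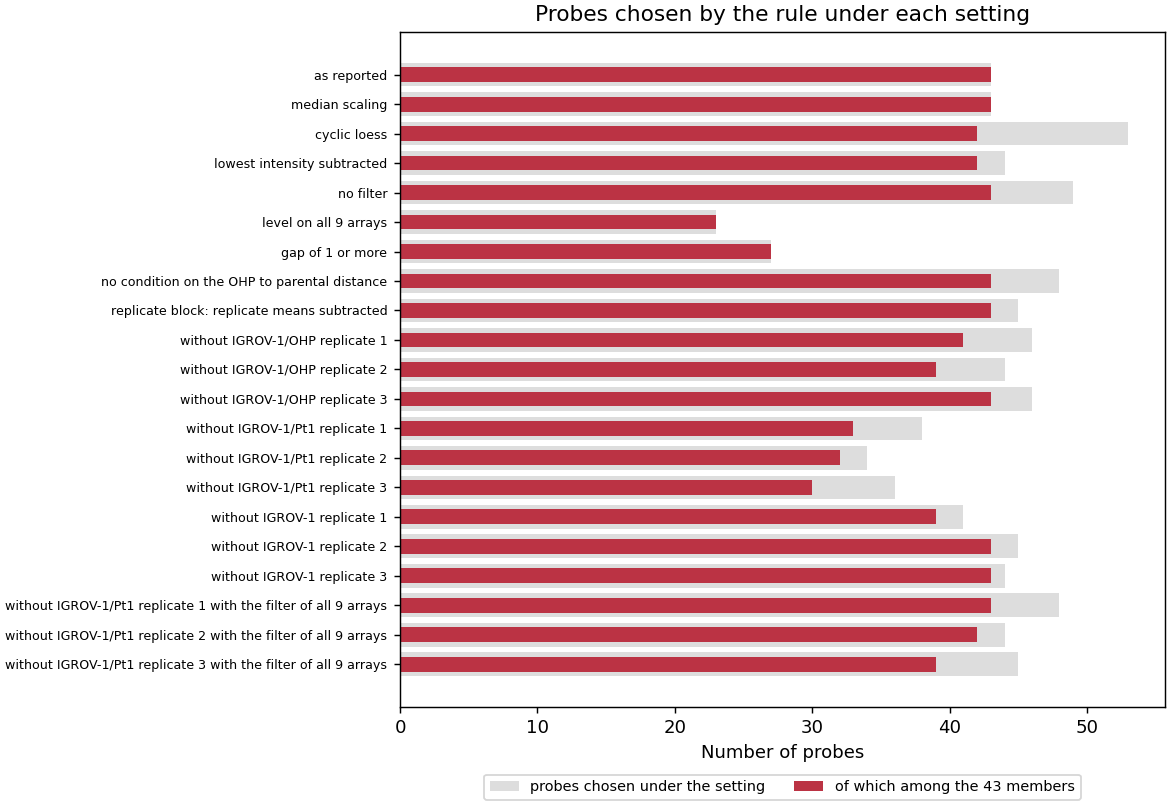
Grey bars give the number of probes that the rule chose under each setting and red bars how many of them are among the 43 members. The settings that cost the most members are the level on all 9 arrays, with 23 left, the gap of 1 or more, with 27 left, and leaving out an IGROV-1/Pt1 array, with 30 to 33 left.

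Cyclic loess scaling of the arrays gave 53 probes by the rule, of which 42 were among the 43 members. Median scaling gave the same 43, but the array medians already agreed, so it moved almost no value and says nothing about stability. Leaving out parental replicate 1 kept 39 of the 43, and the members lost were ranks 35, 39, 40 and 41, all with a gap below 1. Without an IGROV-1/Pt1 array, 30 to 33 members were kept. In each of these cases the 10 members that reached the level only in IGROV-1/Pt1 could no longer reach it on 3 arrays. With the filter of all 9 arrays retained, a setting chosen after the data were seen, 39 to 43 members were kept. Without IGROV-1/OHP replicate 2, 39 were kept, and rank 21 was lost because the distance between the other lines grew to 1.36 against a gap of 1.06.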

How the data were processed

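The authors deposited linear probe intensities from 1-colour Illumina bead arrays of biotin-labelled total RNA. BeadStudio is named, with no version, per the submitters' processing notes. How background and normalization were set is not stated there or in the labels. Sorted intensities differed by at most 2.69% between the 9 arrays at any rank, the form quantile normalization gives, so they were not normalized again. They ran from 41.1 to 38631. A further table, with 18 columns of raw signal and detection calls, was left out because its headers give chip positions that match no sample label. No table pairs probes with miRNA names, so the planned miRNA lists were not used.

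The rule was applied to log2 intensities with no pseudocount. The filter level of 167 is part of the rule. The model across all probes used limma 3.58.1 under R 4.3.3 (3 group means, 9 arrays, 6 residual degrees of freedom, eBayes, two-sided), with adjustment over 705 probes. Its code was also run on simulated data with independent normal errors. These arrays need not follow such errors, so nothing is read from that run. Precision is limited by 3 arrays per line. Bounds divide the geometric mean of the IGROV-1/Pt1 arrays by the level, and give the least fold over a line below the level on every array. Printed mean intensities are arithmetic, whereas folds between line means use the log2 means. The members and lists were chosen with earlier results of these data known. Named probes are the 2 with the widest gap. Other members are given by rank: the 12 widest gaps, the 6 brightest and those nearest each limit, and beside them ranks 14, 15, 21, 22, 28 and 40, chosen after their values were seen. Groups come from sample titles. Alternatives covered scaling, background, filter, gap, array weights, variance trend, a replicate block and leaving out each array.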

Additional observations from a re-analysis of the deposited data

Results flagged for a closer look

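At 5 members all IGROV-1/OHP arrays lay below and all IGROV-1/Pt1 arrays above all parental arrays, so the derived lines stood on either side of the parental line. They make up 11.6% of the members, and all IGROV-1/OHP arrays lay below all parental arrays at 12.5% of all tested probes, so the count is near the general share. The rule chose the probes on the difference between the derived lines, so nothing is read from the limma calls on it. These 5 were also picked out because their IGROV-1/OHP arrays lay below the parental ones. The limma call on the distance of IGROV-1/OHP from parental cells is therefore not independent of that choice. This distance passed the limma threshold at 2 of the 5, ranks 6 and 9, and missed it at ranks 8, 14 and 15. Among all tested probes, 5.39% were called lower by limma for the same pair of lines. For these reasons nothing is read from the 2 calls. On the log2 scale, IGROV-1/OHP minus parental cells was -1.50 at rank 6, -0.55 at rank 8, -2.86 at rank 9, -0.48 at rank 14 and -0.70 at rank 15. That of IGROV-1/Pt1 minus parental cells at the same ranks was 4.23, 3.99, 3.92, 2.33 and 2.04.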

How the results depend on the processing

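The count of 43 members became 23 when the level was asked for on all 9 arrays and 27 with a gap of 1 or more, both subsets of the 43 by construction. It was 44 with the lowest intensity subtracted, 49 with no filter and 48 without the condition on the distance between the other lines. When 1 array was left out, it was between 34 and 46. Without an IGROV-1/Pt1 array but with the filter of all 9 arrays, chosen after the data were seen, it was 44 to 48. With the level on all 9 arrays, 23 members could be tested, and 19 were called in IGROV-1/Pt1 minus parental cells, 19 in IGROV-1/Pt1 minus IGROV-1/OHP and 3 in IGROV-1/OHP minus parental cells, in place of 34, 35 and 6. Leaving out 1 array gave 22 to 38, 18 to 37 and 5 to 7 of them, and the lowest counts against either line came without an IGROV-1/Pt1 array, when 33 members could be tested. Shares of all tested probes called were not counted under any changed setting, so the changes are not read as a trait of the members. The replicate block gave 33, 32 and 5 calls and 45 probes by the rule. The labels do not say whether arrays with the same replicate number were handled together. Deviations of same-numbered arrays correlated between -0.27 and 0.43, and those of differently numbered arrays between -0.47 and 0.24. The highest values, 0.43 and 0.33, came from replicates 3 and 2 of IGROV-1/OHP and IGROV-1/Pt1, where replicate 1 gave -0.18. A shared batch was not tested. Under the other settings each count stayed within 1.5 times. The count for IGROV-1/OHP minus parental cells lay on that limit, at 4, with only the 6 arrays compared, and was 8 with array weights. For the named probes the settings were 3 scalings or backgrounds and each array left out. The gap ran between 6.26 and 6.78 for ILMN_3167116 and between 5.42 and 5.81 for ILMN_3167208. Each gap moved by less than the largest log2 SD of a line under every setting tried. Leaving out 1 of 3 arrays always moves the mean of a line by less than its SD. Those settings could therefore not exceed this limit. At ILMN_3167116 the largest SD was that of parental cells, 0.42, which do not enter its gap. Leaving out a parental array could not move either gap, because IGROV-1/OHP was the higher other line. Median scaling moved almost no value. The arrays left out and median scaling therefore say nothing about stability by this limit.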
